A study of Mus musculus with 4 samples.

Results

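Il7r-expressing wound macrophages were the cells of interest: CD45+ cells from mouse skin wounds whose RNA held the interleukin-7 receptor gene Il7r and that met limits on other lineage genes. Members were selected on raw counts of unique molecular identifiers (UMIs, each standing for 1 captured RNA molecule). A member had 200 or more detected genes, no more than 10% of its UMIs from mitochondrial genes, at least 2 UMIs of Il7r and at least 1 of a further gene, no UMI of Hdc (a mast cell and basophil gene), Cd3e or Cd3g (T cell genes), and fewer than 10 UMIs of C1qa, C1qb and C1qc together (genes of complement C1q, high in resident macrophages). The rule was met by 629 of 19827 cells that passed the quality limits. The members were thus chosen by measured levels of these genes, which are given below as a description only.

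Il7r encodes the alpha chain of the interleukin-7 receptor, which pairs with the common gamma chain (Il2rg) to bind IL-7 and with Crlf2 to bind TSLP, and which signals through JAK kinases and STAT5. The receptor is known above all from lymphocytes, whose survival depends on IL-7, while myeloid cells can gain it during inflammation and in fetal development. Cxcl2 encodes a chemokine that attracts neutrophils, and Clec4d encodes a C-type lectin receptor for microbial glycolipids.

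Live CD45+ cells were sorted from excisional wounds of the back skin and sequenced in droplets, with 1 library for each of 4 conditions: Angptl4+/+ mice (wild type, C57BL6/J) at 1 day postwounding (dpw), Angptl4+/+ at 5 dpw, Angptl4-/- mice (whole-body knockout of angiopoietin-like 4, labelled with the same strain) at 1 dpw and Angptl4-/- at 5 dpw. The animals are described as 8-week-old males in the methods, the knockout came from a repository and the wild type from a vendor, no treatment beyond the wound is named, and the number of mice behind each library is not given in the sources used here. Since each condition was sequenced once, conditions are compared without a test, by values whose intervals cover counting error only. Values in 4 libraries are listed throughout in the order Angptl4+/+ 1 dpw, Angptl4+/+ 5 dpw, Angptl4-/- 1 dpw and Angptl4-/- 5 dpw.

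The libraries held 32962595, 29746688, 27472052 and 26981596 UMIs, and 5346, 4945, 4798 and 4738 of their cells passed the limits. Members numbered 296, 86, 199 and 48, and their median depths were 8917.5, 9227.5, 7114 and 10553 UMIs per cell. Any 2 libraries shared between 4 and 15 cell barcodes, and no member barcode occurred in 2 libraries.

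RNA of the X-inactivation gene Xist, which is made from the inactive X chromosome of females, went against the stated sex in every library. Xist had 886, 966, 782 and 931 UMIs per 1000000 UMIs (CPM) in the members and was detected in 272, 80, 174 and 41 of them. The Y-linked genes Ddx3y, Eif2s3y, Kdm5d and Uty had 0 UMIs in all 629 members, and over all passing cells of the 4 libraries only Uty was seen, with 3 UMIs in Angptl4-/- wounds at 5 dpw. All 4 libraries thus carried Xist and almost no Y-linked RNA, so this did not separate the groups, and the sex of the animals is not taken from the methods here. Angptl4 itself had 10, 2, 0 and 0 UMIs in the members, and the genotype cannot be read from these cells alone at 5 dpw, where 0 and 2 UMIs are both within the 3 UMIs that a count of 0 allows.

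The cell type name was checked against macrophage markers, none of which the rule had used. Of the 10 macrophage markers (among them Lyz2, Csf1r, Cd68, Cd14 and Adgre1), 3 or more were detected in 619 of 629 members, and no marker was at 0 in any library. Their summed level was 13562, 14211, 15555 and 13021 CPM, with Lyz2 (lysozyme) the most abundant at 3981, 6638, 4819 and 6021 CPM. The macrophage gene Adgre1 was detected in 33.8%, 38.4%, 34.7% and 35.4% of members. The T cell markers Cd3e and Cd3g and the mast cell gene Hdc were set to 0 by the rule, so the T cell and mast cell sums are in part fixed by it. T cell markers summed to 0.371, 18.6, 0 and 10.1 CPM, no member had 2 of them, and Cd3d, Trdc and Cd247 were at 0 in all 4 libraries. The 5 NK cell markers were at 0 throughout, and mast cell or basophil markers were seen in 1 member. A small share of members carried genes of other cells. Mature dendritic cell markers (Ccr7, Fscn1, Ccl22, Cacnb3 and Il12b) summed to 80.9, 668, 2.62 and 131 CPM, with 3 or more of them in 6 members, and ILC2 markers summed to 117, 134, 91.7 and 232 CPM, with Areg the most abundant at 89.5, 65.8, 77.9 and 151 CPM, while Gata3 was at 0 in both libraries at 1 dpw and Il13 in all 4. In all, 17 members (7, 8, 0 and 2) had at least 2 UMIs of Ccr7 and Fscn1 together or of Gata3 and Il1rl1 together, and results that rest on them are given with and without them. Neutrophil markers summed to 806, 304, 1037 and 697 CPM, led by S100a8 or S100a9, with Camp at 0 in 3 libraries and Ly6g in both at 5 dpw, and monocyte markers to 3649, 2054, 4275 and 3243 CPM, led by Plac8 at 1 dpw and F13a1 at 5 dpw. At least 2 neutrophil markers were detected in 506 of 629 members and at least 3 in 269. At least 3 monocyte markers were detected in 479, so the macrophage marker count alone does not tell the members from monocytes. The markers of conventional dendritic cells summed to 32.3 CPM at most and those of B cells to 2.02 CPM at most. Of the 2 Langerhans cell markers, Cd207 was at 0 in every library and Epcam had 0, 7, 0 and 0 UMIs. Among markers of other skin cells, Krt5, Krt14 and Dcn were at 0 in every library and Col1a1 had 0, 1, 0 and 0 UMIs. Hba-a1 had 2, 1, 0 and 0 UMIs and Hbb-bs 5, 1, 0 and 0. The endothelial gene Pecam1, which leukocytes also express, had 89.5, 74.5, 72.0 and 78.6 CPM.

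The promoters of Il7r and of Ctsk and Inhba are shown because Il7r defines the cells and the other two held the C/EBP matches among the genes named below as highest in them. The Il7r gene spans chr15:9505788-9530176 on the minus strand. Each runs from 250 bases before to 50 bases after the RefSeq start site (GRCm38.p6), read along the gene's own strand, at chr15:9529827-9530126 on the minus strand for Il7r, chr3:95498960-95499259 on the plus strand for Ctsk and chr13:16011601-16011900 on the plus strand for Inhba. Capitals mark matches on either strand to the C/EBP motif TTGCNNAA; matches to the AP-1 motif TGANTCA and to the hypoxia response element core ACGTG were searched as well and did not occur in these 3 windows.
Il7r promoter: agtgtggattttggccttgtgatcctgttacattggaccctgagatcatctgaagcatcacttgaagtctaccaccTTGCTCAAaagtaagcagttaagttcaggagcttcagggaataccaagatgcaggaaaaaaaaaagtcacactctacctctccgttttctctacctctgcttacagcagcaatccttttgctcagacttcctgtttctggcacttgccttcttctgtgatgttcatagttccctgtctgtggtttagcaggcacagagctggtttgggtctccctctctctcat
Ctsk promoter: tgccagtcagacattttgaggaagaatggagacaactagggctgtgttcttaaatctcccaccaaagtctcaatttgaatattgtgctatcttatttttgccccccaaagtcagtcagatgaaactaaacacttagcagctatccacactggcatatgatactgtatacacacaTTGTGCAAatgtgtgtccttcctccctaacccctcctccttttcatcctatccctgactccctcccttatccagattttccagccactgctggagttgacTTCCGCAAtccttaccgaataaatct
Inhba promoter: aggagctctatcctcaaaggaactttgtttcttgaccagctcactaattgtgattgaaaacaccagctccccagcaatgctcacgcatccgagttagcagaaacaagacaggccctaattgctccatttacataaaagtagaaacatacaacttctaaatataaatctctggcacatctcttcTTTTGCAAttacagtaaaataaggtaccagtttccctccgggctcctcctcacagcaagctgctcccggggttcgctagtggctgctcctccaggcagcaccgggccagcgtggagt
The Il7r promoter held 1 C/EBP match, the Ctsk promoter 2 and the Inhba promoter 1. Over all 32851 promoters of the RefSeq table, 10.8% held a C/EBP match, 7.81% an AP-1 match and 19.6% an ACGTG, and counted per gene, over 27025 genes, the shares were 12.2%, 8.97% and 21.8%. Of the 15 genes named below as highest in the members against other macrophages that express Fn1, 11 had a promoter in the table, and of these 2 held a C/EBP match (Ctsk and Inhba), 1 an AP-1 match (Ctla2a) and 0 an ACGTG. Of the 10 genes named as lowest, 7 had one, and 1 held a C/EBP match, 1 an AP-1 match and 0 an ACGTG. These matches describe letters in a window, not binding.

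Il7r macrophages were most frequent at 1 dpw and were less frequent in Angptl4-/- than in Angptl4+/+ wounds on both days. They made up 5.54% of passing cells in Angptl4+/+ wounds at 1 dpw (exact Clopper-Pearson 95% interval 4.94 to 6.18) and 1.74% at 5 dpw (1.39 to 2.14). The Angptl4-/- shares were 4.15% at 1 dpw (3.60 to 4.75) and 1.01% at 5 dpw (0.748 to 1.34). The genotypes differed by -1.39 percentage points at 1 dpw (Newcombe 95% interval -2.22 to -0.552) and by -0.726 at 5 dpw (-1.20 to -0.262), and the days by -3.80 points in Angptl4+/+ wounds (-4.52 to -3.09) and -3.13 in Angptl4-/- wounds (-3.79 to -2.51). A rule that asks for 2 UMIs finds more members in deeper cells, so every cell was also thinned to 2000 UMIs and the rule applied again. The shares were then 3.55%, 0.991%, 2.41% and 0.687%, in the same order, but the genotype difference at 5 dpw was -0.303 points with an interval that included 0 (-0.698 to 0.0824).

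**Figure D1:**
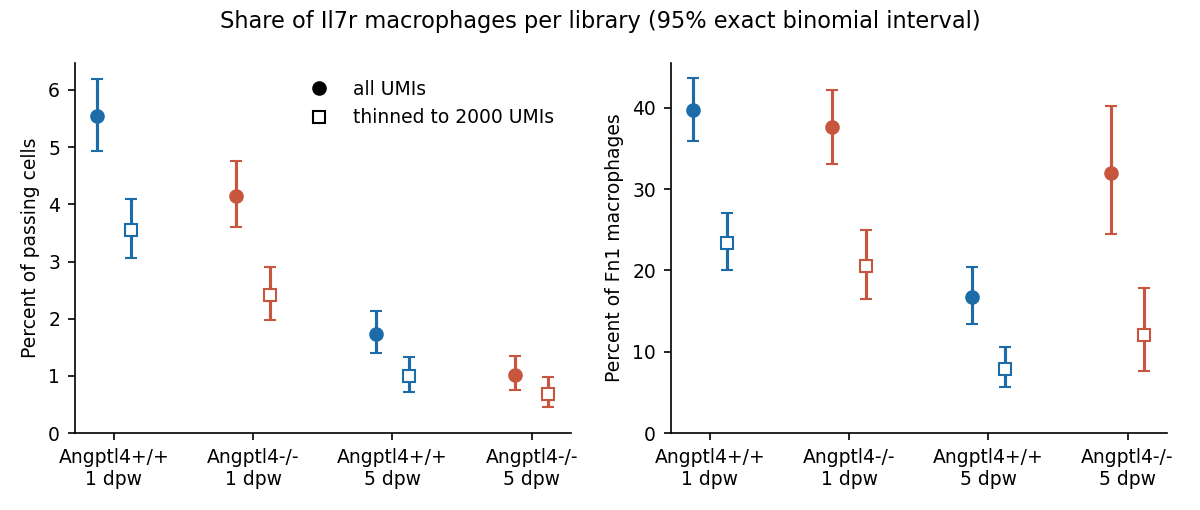
Share of Il7r macrophages in each library, as a percentage of all passing cells (left) and of all Fn1 macrophages (right), with exact binomial 95% intervals that cover counting error only. Filled points use all UMIs and open squares use cells thinned to 2000 UMIs; at 5 dpw the genotypes stand in opposite order in the left and right panels.

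Set against the macrophages they most resemble, the order of the genotypes at 5 dpw was turned. Among cells with at least 1 UMI of Fn1 (fibronectin, a matrix protein of wound macrophages) that met the rest of the rule with any Il7r level, called Fn1 macrophages below, 259 of 652, 77 of 461, 171 of 455 and 47 of 147 were members. These were 39.7% (36.0 to 43.6), 16.7% (13.4 to 20.4), 37.6% (33.1 to 42.2) and 32.0% (24.5 to 40.2). At 1 dpw the genotypes differed by -2.14 points, within counting error (-7.91 to 3.70), and at 5 dpw the Angptl4-/- share was 15.3 points higher (7.37 to 23.8). The 5 dpw cells of this class were deeper in Angptl4-/- than in Angptl4+/+ wounds (median 9427 against 6667 UMIs), and after thinning to 2000 UMIs the difference was 4.13 points (-0.720 to 10.2). In the thinned cells 5 dpw differed from 1 dpw by -15.5 points in Angptl4+/+ (-19.6 to -11.2) and by -8.42 points in Angptl4-/- wounds (-14.4 to -1.58). Shares of the sorted cells say nothing of cell numbers per wound.

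Il7r was not spread evenly over the wound leukocytes. At least 1 UMI of Il7r was found in 52.3%, 23.2%, 49.5% and 41.5% of Fn1 macrophages, in 34.7%, 13.7%, 39.8% and 27.0% of macrophages with 10 or more C1q UMIs, and in 14.2%, 11.5%, 8.82% and 14.1% of monocytes with at least 2 UMIs each of Ly6c2 and Plac8. Neutrophils, which should lack the gene and so show the level of free RNA, had it in 0.951%, 0.678%, 0.712% and 0.344% of cells, at median depths of 4932, 3248, 4947 and 3434 UMIs against 6023, 6667, 4867 and 9427 in the Fn1 macrophages. T cells, the best known Il7r cells, had it in 75%, 79.7%, 70.0% and 78.0%. After thinning to 1000 UMIs, the Fn1 macrophages with Il7r were 24.9%, 9.89%, 27.8% and 15.2%, higher at 1 than at 5 dpw in both genotypes. In the members Il7r was at 877, 739, 905 and 712 CPM, a level that the rule set a floor for by asking for 2 UMIs in each member, and the T cells, which were not chosen on Il7r, had 534, 439, 774 and 483 CPM. The median Il7r count of the members was 6, 5, 5 and 5.5 UMIs per cell with highest counts of 33, 32, 33 and 32, and 31.4%, 24.4%, 23.6% and 25% of members had 10 or more.

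Cells on either side of the Il7r threshold are given as a description. Over the 4 libraries together, cells that met the rest of the rule, with or without Fn1, and had 1 UMI of Il7r (209 cells, median depth 5262 UMIs) had 7539 CPM of Cxcl2, 1057 of Clec4d, 703 of Ccr2 and 105 of Adgre1. Members with exactly 2 UMIs (115 cells, 5707 UMIs) had 8587, 1240, 496 and 101 CPM, and those with 5 or more (353 cells, 9836 UMIs) had 10043, 1388, 315 and 64.2 CPM. Cells that met the rest of the rule with no Il7r, of which 981 had Fn1 (1073 cells, 4366 UMIs), had 5152, 698, 1198 and 147 CPM. These pooled levels mix days that differ in Cxcl2. Within the 4 libraries, cells with no Il7r had 7782, 2836, 6417 and 4498 CPM of Cxcl2, and members with 5 or more UMIs had 11154, 6113, 10838 and 6914. For the monocyte receptor gene Ccr2 the values were 1049, 1303, 1254 and 1159 against 261, 387, 285 and 628, and for the macrophage gene Adgre1 (F4/80) 118, 168, 156 and 144 against 62.2, 60.5, 76.1 and 46.3. In each library the members with 5 or more UMIs were thus above the cells with no Il7r in Cxcl2 and below them in Ccr2 and Adgre1, and they were also deeper. On the C1q side, the 9 members with 7 to 9 C1q UMIs had 3629 CPM of Cxcl2 and 880 of Ccr2, and the 12 cells just outside, with 10 to 12, had 10978 and 760. These few cells are given without a split by library or day, so this edge is not ranked against the Il7r edge.

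The closest comparison was with the 981 Fn1 macrophages that had no Il7r UMI (311, 354, 230 and 86 cells). UMIs were summed per class and library and tested with edgeR's quasi-likelihood test with the library as a block, which asks for a difference shared by the 4 libraries, each of another condition. Genes with near-identical copies (among those named, Csf2rb, Fth1, Ftl1, Gapdh, Ifi202b, Ifit3b and the class II genes) can share reads with them, and their values are uncertain to that extent. Benjamini-Hochberg adjusted p under 0.05 was the threshold, and fold changes are on the log2 scale. Of 7666 genes tested (the genes of the rule left out), 463 were higher in Il7r macrophages (6.04%) and 330 were lower (4.30%), with a median of -0.01 over all genes. The comparison cells were shallower (median 3361, 5708, 2854.5 and 8941 UMIs), and with both classes limited to cells of 5000 to 20000 UMIs the counts were 500 and 408. Without the Angptl4+/+ library at 1 dpw they were 126 and 68, without the Angptl4-/- library at 1 dpw 192 and 124, and without the Angptl4+/+ library at 5 dpw 309 and 200. The counts per gene list below moved with them: without the library block 0 cytokine and 0 growth factor genes were called higher, with 2 arginine and polyamine and 3 matrix and protease genes.

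Inhba, which encodes the subunit of activin A, stood out among the growth factor genes. It had 1094, 212, 917 and 183 CPM in Il7r macrophages and 236, 34.6, 226 and 43.9 in those without Il7r. It was higher in the members of every library, although the classes overlapped across days because both were lower at 5 dpw. Inhba rose by 2.33 ± 0.144 (SE) with an adjusted p of 8.64e-06 (edgeR; 0.102 without the library block), and its UMIs came from 177, 18, 111 and 12 members. Vegfa, the angiogenic growth factor, had 633, 552, 609 and 877 CPM against 546, 275, 483 and 316, a rise of 0.84 with no overlap (adjusted p = 0.0151, edgeR). These were the only 2 of 10 growth factor genes tested that were called higher, and none was lower (median 0.81), with Areg, encoding amphiregulin, at 1.75 and an adjusted p of 0.0728 (edgeR).

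Of 11 cytokine genes, 4 were higher and 0 lower (median 0.71). The number higher was 2 with DESeq2 and without either Angptl4+/+ library, and 5 in cells of 5000 to 20000 UMIs, where 1 was lower. Without the condition on Fn1 it was 2, with a median of 0.30. Il1rn, the interleukin-1 receptor antagonist, had 930, 879, 1515 and 456 CPM against 411, 162, 558 and 194, and rose by 1.67 (adjusted p = 0.000441, edgeR). Osm, oncostatin M, had 448, 349, 412 and 760 CPM against 287, 199, 314 and 301 with no overlap, and rose by 0.89 (adjusted p = 0.00342, edgeR). The other two were Csf1 and the decoy receptor gene Il1r2. Il1b itself did not pass, with 2759, 1709, 2361 and 1818 CPM against 3274, 1242, 3169 and 1153, nor did Tnf (0.71, adjusted p = 0.104, edgeR) or Tgfb1.

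Chemokine genes were divided. Of 17 tested, 5 were higher (Cxcl1, Cxcl2, Cxcl3, Ccl3 and Ccl5), 2 were lower (Ccl6 and Ccl24), and the median was 0.14. Cxcl2, a marker of the label that was put forward with earlier results of these data known, had 11042, 4811, 10249 and 7069 CPM against 7561, 2537, 6201 and 3434. It was higher in the members within each library and rose by 0.91 ± 0.121 (SE, adjusted p = 0.000955, edgeR), but the classes overlapped across libraries and the adjusted p was 0.209 in the fit without the library block. Cxcl2 was also abundant in the wound neutrophils, at 32345, 25585, 31189 and 29721 CPM. Cxcl3, a close relative, had 2155, 1097, 2317 and 1346 CPM against 1793, 210, 1577 and 906 (1.01, adjusted p = 0.0409, edgeR). In the other direction, Ccl6 had 916, 693, 807 and 1494 CPM against 3606, 1710, 2790 and 1834, and fell by 1.25 with no overlap (adjusted p = 0.00467, edgeR). Ccl5 was higher in 3 of 4 libraries, with 34.5, 226, 125 and 4.03 CPM against 0.629, 8.09, 6.18 and 27.6, and 96.2% of its UMIs in Angptl4+/+ members at 5 dpw lay in 1 member. The number of chemokine genes called higher was 2 without either library at 1 dpw and 0 without the library block. Pf4 and Ccl9 did not pass.

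Of the receptors that recognise microbes, the C-type lectin cluster to which Clec4d belongs was divided, with 3 genes higher in the members and Clec4a1 and Clec4a3 lower. Clec4d, the other label marker, had 1367, 939, 1558 and 812 CPM against 901, 552, 832 and 545 and rose by 0.81 (adjusted p = 0.00177, edgeR, and 0.0832 without the library block). It was also frequent in the wound neutrophils. After thinning to 1000 UMIs it was found in 90.92%, 84.89%, 89.79% and 86.55% of them, against 71.62%, 47.67%, 77.16% and 43.75% of members. Clec4e (Mincle) had 1036, 698, 1510 and 768 CPM against 647, 387, 763 and 473 and rose by 0.91, Clec4n (Dectin-2) rose by 0.98 with no overlap, and Cd14, the lipopolysaccharide co-receptor, rose by 0.75, with adjusted p of 0.00087, 0.00223 and 0.00293 (edgeR). With Tlr2 these made 5 of 20 recognition genes higher, 2 were lower, and the median of the list was -0.05.

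The genes of arginine and polyamine metabolism included 6 higher of 10 (median 0.66) and 0 lower. Nos2, the inducible nitric oxide synthase, had 253, 179, 216 and 147 CPM against 143, 47.7, 94.8 and 37.6, and rose by 1.49 without overlap (SE 0.186, adjusted p = 0.000686, edgeR). Odc1, ornithine decarboxylase, the first step from ornithine to polyamines, had 157, 119, 185 and 157 CPM against 114, 42.3, 111 and 53.9 and rose by 1.08 (adjusted p = 0.0038, edgeR). Sms, Azin1 and Ass1 were also higher, and Sat1, the most abundant gene of the list, was at 0.45 with an adjusted p of 0.0518 (edgeR).

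Hypoxia and glycolysis genes formed the list with the most calls, 14 higher of 26 and 0 lower, with a median of 0.46. Hilpda, a hypoxia-induced protein of lipid droplets, had 1144, 898, 1108 and 1026 CPM against 689, 241, 465 and 266 and rose by 1.55 (SE 0.188, adjusted p = 0.000591, edgeR). The glycolytic enzyme genes moved less: Gapdh had 6102, 5116, 5369 and 4866 CPM against 5088, 4317, 3660 and 3578 and rose by 0.48, Eno1 (enolase) rose by 0.53, Pkm (pyruvate kinase) by 0.40 and Pgam1 by 0.46, with adjusted p of 0.0218, 0.0119, 0.0377 and 0.0251 (edgeR). Pgk1 was at 0.17 and did not pass (adjusted p = 0.51, edgeR). The number of calls in this list was 17 of 26 in cells of 5000 to 20000 UMIs, 3 without the library block, and 4 without either library at 1 dpw, and its median lay between 0.38 and 0.53 in all of the alternatives run.

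**Figure D2:**
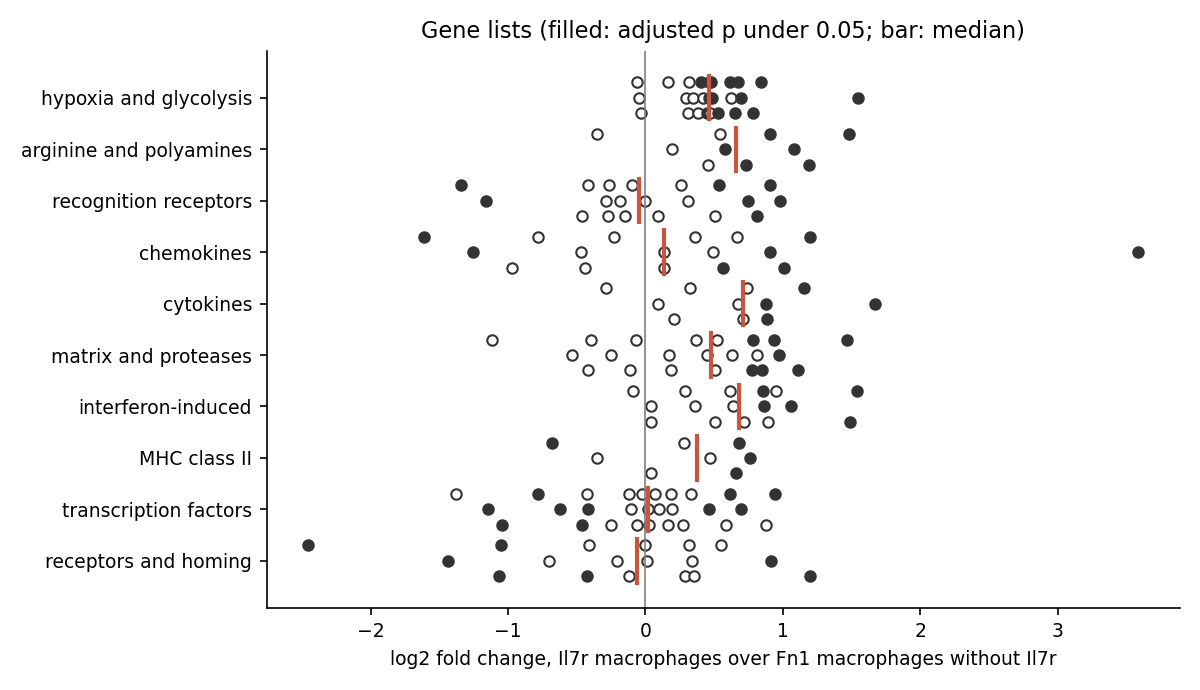
Log2 fold change of each tested gene in 10 gene lists, Il7r macrophages over Fn1 macrophages without Il7r, from the edgeR fit over 4 libraries. Filled points have an adjusted p under 0.05 and red bars are list medians; the hypoxia and glycolysis list has 14 of 26 genes filled, all above 0.

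Matrix and protease genes were higher in 7 of 22 cases and lower in 0 (median 0.48). Spp1, osteopontin, had 6428, 8170, 5622 and 2131 CPM against 3056, 737, 3964 and 1311, a rise of 1.47 with a wide error (SE 0.388, adjusted p = 0.0331, edgeR). Thbs1, thrombospondin 1, had 6784, 3791, 7077 and 7214 CPM against 5735, 1769, 5498 and 2937 and rose by 0.85, and F10, coagulation factor X, had 678, 658, 604 and 863 against 427, 376, 315 and 402 and rose by 0.97 without overlap (adjusted p = 0.00978 and 0.000621, edgeR). Tgfbi (adjusted p = 0.0519) and F13a1 did not pass. Fn1, which only the comparison class had to express, was 2797, 3847, 2883 and 5402 CPM in the members and 6064, 5510, 6614 and 4966 in the others, and carries no test. Dropping the Fn1 condition gave 488 genes higher and 348 lower.

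Retnla and Cbr2 were among the 10 genes with the lowest fold changes. Retnla, a resistin-like protein induced by IL-4, had 0.742, 6.21, 1.96 and 36.3 CPM against 44.0, 113, 169 and 356, and fell by 4.39 ± 0.338 (SE, adjusted p = 4.9e-05, edgeR). Cbr2, a carbonyl reductase of resident macrophages, had 2.60, 8.70, 7.20 and 2.02 CPM against 34.6, 80.9, 45.3 and 91.5 and fell by 3.29 (adjusted p = 0.000116, edgeR). Every member library was below every comparison library for both genes. Ltc4s, leukotriene C4 synthase, had 8.17, 43.5, 3.93 and 30.2 CPM against 106, 369, 63.9 and 107 and fell by 3.05, and Ptgs1, cyclooxygenase 1, fell by 3.53 (adjusted p = 6.55e-05 and 0.00255, edgeR). Cx3cr1, the fractalkine receptor, fell by 2.45 and Folr2, folate receptor beta, by 2.14, and the remaining genes of the 10 lowest were Stxbp6, Abcd2, Nhsl2 and Ccdc88c. Folr2 and Stxbp6 and Abcd2 lost their calls when the Angptl4+/+ library at 1 dpw was left out (adjusted p = 0.0555, 0.0518 and 0.0539, edgeR), and Cx3cr1 without the library block (0.0765). Of the 10 alternative activation genes, 1 was higher (Pdcd1lg2) and 2 were lower (Retnla and Ccl24), with a median of -0.29, while Chil3 and Mrc1 did not pass. No gene of this list was called higher with DESeq2, without any 1 of the 4 libraries, without the members that had dendritic cell or ILC2 genes or without each gene's highest cell.

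Among receptor genes, Ccr2 was lower and Csf2rb higher than in Fn1 macrophages without Il7r. Ccr2, the receptor for CCL2 by which monocytes leave the marrow, had 339, 426, 357 and 651 CPM against 1100, 1348, 1273 and 1230, and fell by 1.43 ± 0.15 (SE) without overlap (adjusted p = 0.000225, edgeR). Csf2rb, the shared chain of the GM-CSF, IL-3 and IL-5 receptors, had 588, 381, 478 and 472 CPM against 299, 236, 298 and 253, and rose by 0.91 without overlap (adjusted p = 0.000814, edgeR). Csf1r, the M-CSF receptor, did not pass (511, 447, 525 and 389 CPM against 435, 598, 469 and 524), and Itgam (CD11b) fell by 0.42 (adjusted p = 0.0479, edgeR). Of 18 receptor and homing genes, 2 were higher (Csf2rb and Itgax) and 5 lower (Ccr2, Cx3cr1, Ifngr1, Itgam and Itga4). Among the 10 macrophage markers Cd68 and Cd14 were higher and Adgre1, Lyz2 and Itgam lower. Adgre1 had 60.9, 80.7, 87.1 and 64.5 CPM against 120, 170, 144 and 157 and fell by 0.89 (adjusted p = 0.00217, edgeR). Neutrophil markers together were higher in the comparison cells in 3 of 4 libraries (1588, 714, 1550 and 339 against 806, 304, 1037 and 697 CPM), and 1 of the 6 tested was called, Retnlg, which was lower in the members. The number called lower was 4 without the Angptl4-/- library at 5 dpw, 5 without the condition on Fn1 and 0 in cells of 5000 to 20000 UMIs, where the median was 0.11 against -0.40 in all cells.

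The rest of the receptor pathway itself differed little between the classes. Il2rg had 79.4, 101, 89.7 and 62.5 CPM in the members against 69.2, 63.0, 73.1 and 69.0 (0.40, adjusted p = 0.14, edgeR), and Crlf2, the TSLP receptor subunit, had 112, 153, 120 and 133 CPM, so RNA for both partner chains was present in the members of every library. Of 15 genes of the pathway and its targets tested, 1 passed, Mcl1, a survival gene of the BCL2 family, which had 2449, 1805, 2384 and 2024 CPM against 2083, 1477, 2139 and 1315 and rose by 0.42 (adjusted p = 0.0418, edgeR). No gene of this list was called without the library block, without either library at 1 dpw or without the Angptl4+/+ library at 5 dpw, and 4 were called without the Angptl4-/- library at 5 dpw. Pim1 (0.26), Socs3 (0.25) and Jak1 (-0.05) did not pass, with adjusted p of 0.176, 0.223 and 0.834. The Il7 transcript was near absent, with 1 UMI in 629 members.

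Genes of transcription factors and their inhibitors went both ways, with 4 of 28 higher (Bhlhe40, Jun, Nfkbia and Id2) and 6 lower (Cebpd, Klf2, Maf, Nr4a1, Junb and Egr1). The number lower was 1 without the Angptl4+/+ library at 1 dpw and 3 without the Angptl4-/- library at 1 dpw. Klf2, a factor of quiescent monocytes and endothelium, had 532, 330, 379 and 306 CPM against 1094, 844, 893 and 581 and fell by 1.04 (adjusted p = 0.000409, edgeR), and Junb fell by 0.46. Fos and Cebpb did not pass. Metal and redox genes were higher in 3 of 14 cases, led by the ferritin heavy chain gene Fth1, which rose by 0.88 without overlap (adjusted p = 0.00113, edgeR), with Ftl1 and the cystine transporter gene Slc7a11, while Mt2 was lower. Lipid genes were higher in 4 of 13 cases: Plin2, which coats lipid droplets, had 1312, 938, 1232 and 1074 CPM against 967, 633, 839 and 663 and rose by 0.66 (adjusted p = 0.00384, edgeR), with Nr1h3, Acp5 and Gpnmb.

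Some class II and interferon-induced genes were called higher. Of 8 class II genes, H2-Aa, H2-Ab1 and H2-Eb1 were higher and H2-DMa lower (median 0.38), and Cd74 did not pass (0.47, adjusted p = 0.06, edgeR). H2-Ab1 had 682, 1707, 490 and 1897 CPM against 372, 1300, 277 and 1605 and rose by 0.68 (adjusted p = 0.0103, edgeR). Of 16 interferon-induced genes, 5 were higher (Isg15, Isg20, Rsad2, Oasl1 and Cmpk2), with a median of 0.68. Rsad2, viperin, had 1587, 467, 2332 and 234 CPM against 546, 133, 498 and 302, higher in 3 of 4 libraries (1.49, adjusted p = 0.0135, edgeR), while Cxcl10 and Irf7 did not pass. Without either library at 1 dpw, and without the library block, 0 of the class II genes and 0 of the interferon-induced genes were called higher, and without the Angptl4-/- library at 5 dpw 4 and 11 were. The class II median was 0.19 without the Angptl4+/+ and 0.33 without the Angptl4-/- library at 1 dpw, and the interferon median 0.38 and 0.31. Without the members that had dendritic cell or ILC2 genes, 1 class II gene was higher and 1 lower (median 0.21). Of 8 scavenger and efferocytosis genes, Itgav and Thbs1 were higher and Folr2 lower. None of the 6 cell cycle genes tested passed, and Tubb5, Hmgb2 and Pcna lay between 0.06 and 0.15.

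The 15 genes with the highest fold changes included several of low abundance whose proteins have well-known roles. Ctsk, cathepsin K, the collagen-cleaving protease of osteoclasts, had 49.0, 96.9, 111 and 92.7 CPM against 13.2, 17.5, 17.5 and 8.78, and rose by 2.60 ± 0.210 (SE) without overlap (adjusted p = 6.55e-05, edgeR) from 61, 20, 59 and 6 members. Kdr, VEGF receptor 2, had 41.9, 19.9, 87.7 and 6.05 CPM against 8.18, 3.15, 7.21 and 2.51 and rose by 2.86, and Slc6a8, the creatine transporter, had 117, 106, 99.5 and 60.5 against 23.9, 18.0, 7.21 and 31.3 and rose by 2.44 (adjusted p = 0.000212 and 0.000435, edgeR). Kdr and Slc6a8 were higher in each library, but the classes overlapped for Kdr because its members at 5 dpw in Angptl4-/- wounds had 6.05 CPM. Wwc1, a scaffold of the Hippo pathway, rose by 2.89, Cd200, an inhibitory surface ligand, by 2.89, Hyal1, a hyaluronidase, by 2.25, Anpep, aminopeptidase N, by 2.06, and Plod2, a collagen lysyl hydroxylase, by 2.38. Mir155hg, the host transcript of miR-155, rose by 2.18, and Dst and Ankrd33b were also among the 15, although Ankrd33b had an adjusted p of 0.156 without the Fn1 condition. Ccr7 and Ctla2a rested on few cells. The 262 Ccr7 UMIs of the members came from 6, 5, 3 and 1 cells, and its rise of 3.03 (adjusted p = 0.00891, edgeR) was not called by DESeq2 (0.15). Ctla2a rose by 2.78, and its adjusted p was 0.263 when members with dendritic cell or ILC2 genes were left out. Xist was called as well, at 0.55 (adjusted p = 0.0153, edgeR), with 886, 966, 782 and 931 CPM against 573, 730, 545 and 799.

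**Figure D3:**
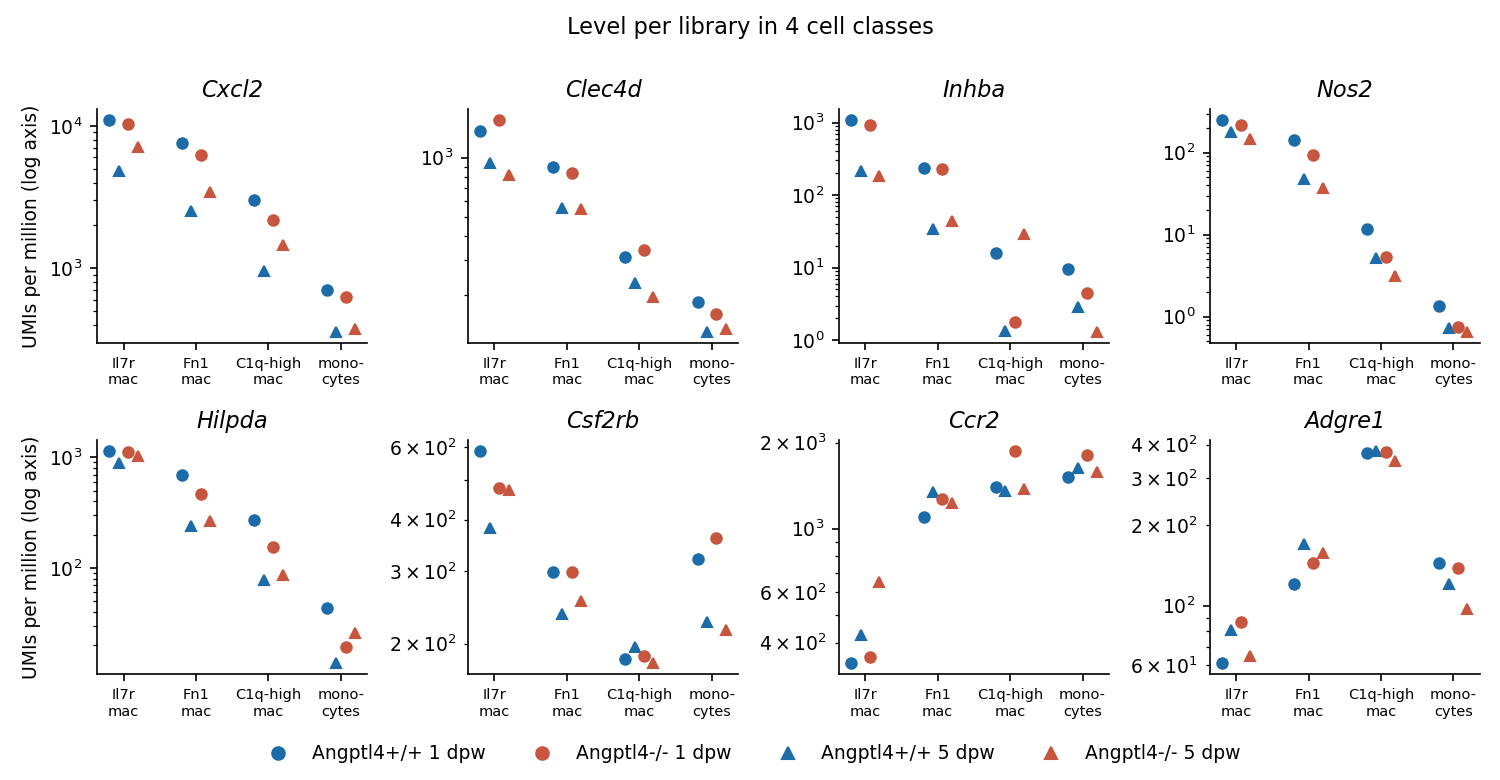
Level of 8 genes in UMIs per 1000000 UMIs (log axis) in Il7r macrophages and 3 comparison classes, with 1 point per library, circles for 1 dpw, triangles for 5 dpw, blue for Angptl4+/+ and red for Angptl4-/-. Within every library Nos2 and Inhba are highest and Ccr2 and Adgre1 lowest in the Il7r macrophages.

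Against the 870 C1q-high macrophages (64, 577, 53 and 176 cells, no Il7r UMI), the distance was larger. Of 7697 genes, 1196 were higher (15.5%) and 1034 lower (13.4%) in Il7r macrophages, with 551 lower when the Angptl4+/+ library at 1 dpw was left out. Ptges, which makes prostaglandin E2, had 214.5, 95.6, 282 and 88.7 CPM in the members and 8.80, 1.52, 1.79 and 0.442 in the C1q-high cells, and rose by 6.09 ± 0.303 (SE, adjusted p = 4.22e-07, edgeR). Nos2 had 11.7, 5.12, 5.38 and 3.09 CPM in the C1q-high cells and rose by 5.25, and Inhba rose by 5.47 (adjusted p = 5.41e-08 and 0.000109, edgeR). Ctla2a, Wwc1 and 1700012B09Rik completed the 6 highest. The 6 lowest were Cd163, Cd5l, Gas6, Ccl8, Cbr2 and Retnla. Cd163, the haemoglobin scavenger receptor, had 2 UMIs in all members and 182 in the C1q-high cells, Cd5l 1 and 185, and Gas6, a bridge to apoptotic cells, 4 and 385. Ccl8 had 7.05, 0, 12.4 and 0 CPM against 837, 84.6, 256 and 97.6 and fell by 5.71, and Cbr2 and Retnla fell by 5.54 and 5.40 (adjusted p = 5.77e-06, 4.87e-07 and 0.000593, edgeR).

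The lists set the same contrast in order. All 26 hypoxia and glycolysis genes were higher in Il7r than in C1q-high macrophages (median 1.44), as were 8 of 10 arginine genes, 11 of 14 metal and redox genes, 7 of 10 cytokine genes (with Il18 lower) and 17 of 22 matrix genes (with Timp2 lower). Of 8 class II genes 0 were higher and 6 lower (median -0.96), and of 11 scavenger and efferocytosis genes 3 were higher and 7 lower (median -1.69). Of the 13 receptor pathway genes tested, Jak2, Cish, Socs1, Pim1 and Mcl1 were higher. Adgre1 fell by 2.15 and Ccr2 fell by 1.61, while Cxcl2 rose by 2.37 and Clec4d by 2.29 (adjusted p = 3.1e-06, 7.88e-05, 9.66e-07 and 9.32e-07, edgeR). C1q itself was part of the rule, so nothing is read from it.

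The 482 monocytes with Ly6c2 and Plac8 and without Il7r or the further gene of the rule (103, 146, 93 and 140 cells) were the most distant class. Of 8104 genes, 1877 were higher in the members (23.2%) and 1840 lower (22.7%), with 1128 lower when the Angptl4+/+ library at 1 dpw was left out. Sema3c, a secreted guidance protein, had 332 UMIs in the members and 0 in the monocytes, so it was at least 115-fold higher against a floor of 3 UMIs over the 4 libraries. Plpp3, Adamtsl5 and Igf2bp2 had 241, 174 and 164 UMIs against 0 and were at least 83.8, 60.5 and 57.0-fold higher. Cav1, the caveolae protein, had 228, 132, 306 and 169 CPM in the members and 2 UMIs in all monocytes, and Pmp22 had 441 UMIs against 1. The lowest genes included Prtn3, proteinase 3 of the azurophil granules, which had 2.60, 0, 1.96 and 0 CPM in the members and 171, 26.8, 167 and 22.7 in the monocytes (-6.01, adjusted p = 9.07e-06, edgeR). Hpgd, which breaks down prostaglandins, had 5 UMIs against 348, and Ipcef1, Gpr18, Bmx and Gm9733 were the other four. All 26 hypoxia and glycolysis genes were higher than in monocytes (median 2.57), as were 11 of 16 chemokine genes, 13 of 14 metal and redox genes and 5 of 7 growth factor genes, with none lower in these lists. Of 8 class II genes 3 were lower and 0 higher. Ccr2 fell by 1.81 and Adgre1 fell by 0.66 (adjusted p = 0.000152 and 0.00787, edgeR), and the Adgre1 call was lost without the Angptl4+/+ library at 1 dpw (0.0593).

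Within the members, more genes were called between the days than between the genotypes. A gene was called different between 2 libraries if its CPM differed at least 2-fold with at least 100 UMIs over both and a 95% interval (exact conditional binomial) that left out no change; this is a rule of size, not a test. From 1 to 5 dpw, 56 of 4401 genes were higher (1.27%) and 187 lower (4.25%) in Angptl4+/+ members, and 61 of 3035 were higher (2.01%) and 234 lower (7.71%) in Angptl4-/- members. Between genotypes, 27 of 4850 were higher (0.557%) and 30 lower (0.619%) in Angptl4-/- members at 1 dpw, and 25 of 2009 were higher (1.24%) and 39 lower (1.94%) at 5 dpw. The median log2 ratio over all genes was between -0.07 and 0.07 in each. The median share of mitochondrial UMIs per member was 1.93%, 2.63%, 1.55% and 2.98%, higher at 5 dpw in both genotypes, and its part in these counts was not tested. The 2 genotype contrasts share no library with each other but each shares one with each time contrast, and the small number of members at 5 dpw sets how few genes reach 100 UMIs.

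Interferon-induced genes were lower at 5 dpw in the members of both genotypes, 15 of 15 with 100 UMIs in each, with median log2 ratios of -1.40 in Angptl4+/+ and -2.58 in Angptl4-/- wounds. Their summed level was 5247, 1666, 7804 and 1094 CPM in the members, against 2297, 1344, 2962 and 2309 in Fn1 macrophages without Il7r, where the medians were -0.41 and -0.45. Cxcl10, a chemokine for T cells, had 761, 135, 852 and 6.05 CPM, Irf7 had 470, 174, 752 and 139, and Ifit1 had 382, 152, 499 and 50.4. The list was carried by part of the members. After thinning to 1000 UMIs the median member had 1, 0, 3 and 0 UMIs of the list, the highest 87, 39, 102 and 23, and 35.1%, 58.1%, 20.3% and 56.3% had none. At 1 dpw all 16 genes were above 0 in Angptl4-/- over Angptl4+/+ members with a median of 0.52, but only Isg15 (909 against 285 CPM, 1.67) and Ifi44 passed the 2-fold rule, and at 5 dpw 0 of 7 were higher and 2 were lower (Ifit1 and Cxcl10, the latter resting on 1 member).

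Class II genes went the other way with time. Of 7 genes, 4 were higher at 5 than at 1 dpw in Angptl4+/+ members (H2-Aa, H2-Ab1, H2-Eb1 and Cd74; median 1.25) and 6 in Angptl4-/- members (median 2.24), and the Fn1 cells without Il7r had medians of 1.67 and 2.48. H2-Aa had 662, 1730, 393 and 1897 CPM and a log2 ratio of 2.27 (2.12 to 2.42) in Angptl4-/- wounds, H2-DMb1 had 171 against 24.2 CPM (2.82), and H2-DMa and H2-Eb1 were the others of the 6 highest there. Of the H2-DMb1 UMIs in Angptl4-/- members at 5 dpw, 56.5% lay in 1 member. Pltp, the phospholipid transfer protein, was among the 6 highest in both genotypes, with 205 against 27.8 CPM in Angptl4+/+ (2.88) and 242 against 19.0 CPM in Angptl4-/- members (3.67). Between the genotypes no class II gene passed the rule at either time.

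**Figure D4:**
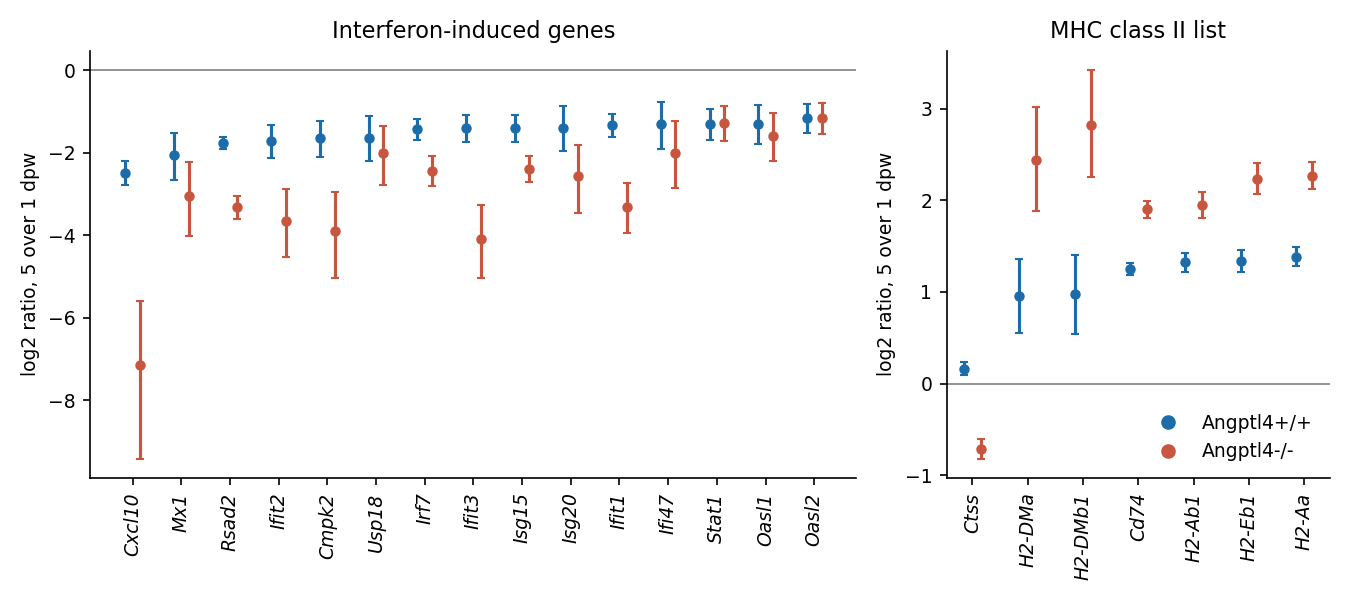
Log2 ratio of CPM at 5 over 1 dpw within Il7r macrophages for 15 interferon-induced genes and 7 class II presentation genes in Angptl4+/+ and Angptl4-/- wounds, with exact conditional binomial 95% intervals for counting error. All 15 interferon-induced genes lie below 0 in both genotypes, and most class II presentation genes lie above 0.

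Chemokine genes were lower at 5 dpw in 8 of 15 cases and higher in 1 in each genotype (medians -1.08 and -1.02), and their sum was 21435, 10448, 21182 and 14313 CPM. The higher gene was Ccl5 in Angptl4+/+ members. In Angptl4-/- members it was Ccl24 (75.9 to 260 CPM), with 62.0% of its UMIs at 5 dpw in 1 member. Cxcl1, Ppbp, Pf4, Cxcl10 and Ccl4 were on both lists of 8, with Cxcl2, Ccl2 and Ccl7 in Angptl4+/+ and Cxcl16, Ccl3 and Ccl5 in Angptl4-/- members. The lowest genes in Angptl4+/+ members at 5 dpw were Ppbp, a platelet-type chemokine with 1 UMI against 632 at 1 dpw (-7.56), Serpinb2, an inhibitor of plasminogen activators (2 UMIs against 661, -6.63), the acute phase gene Saa3 (1 against 239), Npy (3 against 143), and Retnlg and Mmp8, which are neutrophil genes (-3.41 each). S100a8, S100a9 and Retnlg made 3 of 3 neutrophil markers with 100 UMIs lower in this contrast, and 5 of 7 monocyte markers were lower (Ly6c2, Plac8, Chil3, Vcan and Hp); their part in the other differences was not tested. The highest were Lpl (312 against 21.9 CPM, 3.83), Pltp, Ccl22 (226 UMIs against 3), Fscn1, Ccnd2 and Ccl5. Fscn1, Ccnd2 and Ccl5 lost their calls without the members that had dendritic cell or ILC2 genes, where Ccnd2 was at -0.43 and Ccl5 at -4.06 (1 UMI against 62), and of the Ccl22 UMIs 49.6% lay in 1 member, with 3 UMIs against 0 left without those members. By fold and interval alone, with no minimum of UMIs, 33 of the 56 higher and 141 of the 187 lower genes were still called without those members in Angptl4+/+ wounds, and 56 of 61 and 218 of 234 in Angptl4-/- wounds. In Angptl4-/- members the lowest at 5 dpw were Gm15056, Cxcl10 (3 UMIs against 1301, -7.14), Ifit1bl1, Ifit3b, Gpnmb (3 against 325) and Ccl5. In the same members 1 of 3 neutrophil markers (Retnlg) and 1 of 7 monocyte markers (Chil3) were lower, and their part was likewise not tested.

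Hypoxia and glycolysis genes did not pass the 2-fold rule in any of the 4 contrasts, with 0 called of 26, 25, 26 and 26 genes. Their summed level was 25480, 21148, 23545 and 23775 CPM, and the median thinned member had 28, 24, 25 and 26 UMIs of the list. Of 22 matrix and protease genes, 5 were lower and 0 higher at 5 dpw in Angptl4+/+ members (Vcan, Mmp8, Mmp12, Mmp13 and Serpinb2), and of 21 in Angptl4-/- members 5 were lower (Spp1, Mmp8, Mmp13, F7 and Ecm1) and 1 higher (Mmp12). Spp1 had 5622 CPM at 1 dpw and 2131 at 5 dpw in Angptl4-/- members, against 6428 and 8170 in Angptl4+/+ members. The median thinned member had 21, 21, 21 and 20 UMIs of the list. Inhba was lower at 5 dpw in both genotypes (1094 to 212 and 917 to 183 CPM).

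Between the genotypes at 1 dpw, Fblim1, Car6, Ifi202b and Gm15056 were at or near 0 in the members of 1 genotype. Positions are those of GENCODE vM21 on GRCm38. Fblim1 (chr4:141576062-141606096), a filamin-binding adaptor, had 132 UMIs in 87 of 296 Angptl4+/+ members and 0 in Angptl4-/- members, at least 24.95-fold lower against a floor of 3 UMIs. Car6 (chr4:150187015-150201332), a carbonic anhydrase, had 121 UMIs in 49 members against 3 (-4.52), and Tnfrsf9 (chr4:150914562-150946102), the costimulatory receptor 4-1BB, had 169 against 17.0 CPM (-3.31). Eps8 (chr6:137477245-137654876), an actin regulator, had 208 against 49.8 CPM (-2.06). At 5 dpw the genotypes were close in Car6 (37.3 CPM in Angptl4+/+ and 34.3 in Angptl4-/- members), Tnfrsf9 (113 and 90.7) and Eps8 (144 and 127), while Fblim1 had 60.9 and 16.1 CPM. The higher genes included Ifi202b (chr1:173962568-173982744), an interferon-inducible DNA-binding protein gene, with 307 against 1.86 CPM (7.37, 6.14 to 9.0), and Hebp1 (chr6:135137522-135198022), a heme-binding protein gene, with 123 against 4.45 CPM (4.79, 3.95 to 5.77). Gm15056 (chr8:20900606-20902627) had 126 UMIs in 20 members against 0, at least 74.1-fold higher, with 52.4% of them in 1 member, and 0 UMIs in both libraries at 5 dpw. Angptl4 lies at chr17:33773750-33781830, on none of these chromosomes. Ifi202b had 1.86, 0, 307 and 115 CPM and Hebp1 4.45, 14.9, 123 and 74.6, so that both Angptl4-/- libraries were above both Angptl4+/+ libraries. In the comparison of classes neither gene was called (Ifi202b 0.40, adjusted p = 0.338, and Hebp1 -0.59, adjusted p = 0.119, edgeR), and the Fn1 cells without Il7r had the same order, with 0, 0, 218 and 123 CPM of Ifi202b and 6.92, 9.44, 235 and 133 of Hebp1.

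Further genes were called between the genotypes. At 1 dpw Ccl5 (125 against 34.5 CPM, 1.86), Slfn9 (100 against 29.0, 1.79) and Lpl (196 against 21.9, 3.16, and 2.15 without its highest member) were higher in Angptl4-/- members, and Ccr7 and Il4i1 (3 UMIs each against 135 and 122) lost their calls when members with dendritic cell or ILC2 genes were left out. At 5 dpw, with 48 Angptl4-/- members, the monocyte-attracting chemokine genes Ccl2 (744 against 201 CPM, 1.89) and Ccl7 (486 against 138, 1.82) were higher, as were Thbd, thrombomodulin (317 against 96.9, 1.71), Ccl24 (260 against 54.7, 2.25, with 62.0% and 68.2% of its UMIs in 1 member of each library), Lmnb1 (163 against 52.2, 1.65) and Mmp12 (947 against 135, 2.81), of whose UMIs 61.9% lay in 1 member. The lowest were Fscn1 (0 UMIs against 195 from 4 members, at least 40.1-fold lower), Ccl5, Il4i1, Tbc1d4, Cxcl10 and Gpnmb (3 UMIs against 108). Fscn1, Il4i1, Tbc1d4 and Ccl5 lost their calls without the dendritic cell or ILC2 members, and Cxcl10 and Ccl5 without their highest member. With each gene's highest member left out, 21 of 27 higher and 29 of 30 lower genes were still called at 1 dpw, and 21 of 25 and 33 of 39 at 5 dpw. Without the members that had dendritic cell or ILC2 genes, 24 of 27 higher and 22 of 30 lower genes were still called at 1 dpw, and 21 of 25 and 20 of 39 at 5 dpw. The neutrophil markers S100a8 (335 against 109 CPM, 1.61) and S100a9 (286 against 137, 1.07) were also higher in Angptl4-/- members at 5 dpw, but 67.5% and 53.5% of their UMIs there lay in 1 of the 48 members. With each gene's highest member left out they were at 0.17 (-0.354 to 0.683) and 0.23 (-0.243 to 0.699) and were not called, while the monocyte markers Ly6c2 and Vcan, higher by 1.33 and 1.11 with all members, were still called (1.03 each). The part of these markers in the other differences was not tested.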

How the data were processed

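Live CD45+ cells were profiled by droplet sequencing (3' UMI counting) in 4 libraries. The authors deposited raw UMI counts for 31053 genes per barcode, with gene and barcode lists (deposited files of other units, names only), and the submitters' processing notes name Cell Ranger 3.1.0, mm10 and Seurat 3.0. Every value column was used (0 left aside). Cells with at least 200 genes and at most 10% mt- UMIs were kept (242 of 20069 barcodes failed, 1 of which met the gene rule). The members, the gene and marker lists and the comparison classes were chosen with earlier results of these data known.

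Levels are UMIs summed over a class per 1000000 UMIs. Sums per class and library were tested with edgeR 4.0.16 (R 4.3.3; TMM, filterByExpr, glmQLFit and glmQLFTest, library as block, Benjamini-Hochberg over all genes tested), with DESeq2 1.42.0 as an alternative. Replicate origin is not stated and each condition has 1 library, so no p-value here measures variation between animals. With the library as a block, p-values weigh the class difference against its spread over 4 libraries of 4 conditions. Genes of the rule (Il7r, Fn1, 1 gene that is not reported here, Hdc, Cd3e, Cd3g, C1qa, C1qb and C1qc, and Ly6c2 and Plac8 against monocytes) were not counted as tested. Shares have exact Clopper-Pearson, their differences Newcombe and CPM ratios exact conditional binomial 95% intervals, covering counting error only; 3 UMIs are 1.11, 3.73, 1.96 and 6.05 CPM in the members. Doublets were scored against simulated pairs (Python 3.11.15, scikit-learn 1.9.0, scipy 1.17.1): 789 cells and 3 members were called and were kept, and leaving them out is an alternative.

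Named genes were the 15 highest and 10 lowest fold changes of the first class contrast and the 6 highest and 6 lowest of the others (adjusted p under 0.05, at least 100 UMIs, same sign in 4 libraries), the 6 highest and 6 lowest ratios of each condition contrast without mt- genes, and 2 to 5 genes per list by their level in the members. Other genes are named where a count was 5 or fewer or were chosen after their values were seen, as were Xist and the Y-linked genes. On simulated counts for the first contrast (7681 genes), 97% of 4-fold and 59% of 2-fold changes were recovered. Promoters came from RefSeq (GRCm38.p6) and positions from GENCODE vM21.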

Additional observations from a re-analysis of the deposited data

Results flagged for a closer look

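In 4 genes the calls of the same contrast pointed in opposite directions in different libraries. Ccl5 was higher in Angptl4-/- than in Angptl4+/+ members at 1 dpw (log2 ratio 1.86) and lower at 5 dpw (-5.81), and from 1 to 5 dpw it was higher in Angptl4+/+ (2.71) and lower in Angptl4-/- members (-4.96). With its highest member in each library left out, the genotype call at 5 dpw was lost and the ratio between days in Angptl4+/+ members turned to -1.33 (-2.70 to -0.202), so that both genotypes were then lower at 5 dpw. Its 93, 182, 191 and 2 UMIs came from 13, 4, 13 and 2 members, and 96.2% of those in Angptl4+/+ wounds at 5 dpw lay in 1 member. Mmp12, macrophage elastase, was lower in Angptl4-/- members at 1 dpw (-1.03) and higher at 5 dpw (2.81), and from 1 to 5 dpw it was lower in Angptl4+/+ (-1.46) and higher in Angptl4-/- members (2.38). It had 373, 135, 183 and 947 CPM from 53, 13, 24 and 8 members, of which the highest held 22.7%, 36.7%, 27.2% and 61.9%. Ms4a7, a macrophage membrane protein gene that is in none of the lists, was higher in Angptl4-/- members at 1 dpw (1.10, 0.910 to 1.30) and lower at 5 dpw (-2.03, -2.59 to -1.51), with 95, 40, 95 and 8 members holding its RNA. Ets1, a transcription factor gene also outside the lists, was lower at 5 than at 1 dpw in Angptl4+/+ members (-1.04, -1.60 to -0.517) and higher in Angptl4-/- members (1.30, 0.795 to 1.79). With 1 library per condition the differences between these contrasts were not tested.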

How the results depend on the processing

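In the comparisons of classes, of 733 values of named genes under alternatives, 718 kept their direction and their side of the threshold, 15 kept the direction and lost the call, and 0 reversed. In the contrasts of conditions, named genes were recomputed without each gene's highest member and without members with dendritic cell or ILC2 genes: of 96 values 83 kept the call, 4 lost it, 6 had 3 UMIs or fewer in both libraries and give no ratio, and 3 turned, all between days in Angptl4+/+ members (Ccl5 to -1.33 without its highest member and to -4.06 without the latter members, and Ccnd2 to -0.43 without them). Thinning to 2000 UMIs moved the shares to 3.55%, 0.991%, 2.41% and 0.687% and the differences between days to -2.56 points in Angptl4+/+ and -1.72 in Angptl4-/- wounds. Against Fn1 macrophages without Il7r, the counts higher and lower were 281 and 167 with DESeq2, 721 and 506 with no filter on low counts, and 183 and 147 with no replicate block for the library. Against C1q-high macrophages DESeq2 called 671 lower. The class comparisons were paired by library through this block. For the comparisons of conditions, with 1 library each, no paired analysis was run, although the genotypes could be paired by day over the 4 libraries. Leaving out 1 library at a time gave 126 to 637 higher and 68 to 462 lower against Fn1 macrophages, 802 to 1046 and 551 to 885 against C1q-high macrophages, and 1295 to 1772 and 1128 to 1747 against monocytes. In these counts the Angptl4+/+ library at 1 dpw, with the most members, lowered them most. For the condition contrasts, asking for 200 UMIs in place of 100 gave 17 higher and 13 lower between genotypes at 1 dpw, 13 and 16 at 5 dpw, 27 higher between days in Angptl4+/+, and 30 and 150 in Angptl4-/- members. Asking for 50 UMIs gave 84 lower at 1 dpw, 61 and 111 at 5 dpw, and 144 and 138 higher between days. A fold of 1.5 gave 129 and 155, 165 and 119, 260 and 474, and 328 and 452. Leaving out members with dendritic cell or ILC2 genes, chosen after seeing the data as was leaving out each gene's highest member, gave 34 higher between days in Angptl4+/+ wounds. The cause of these shifts was not tested. Depth limits the 5 dpw contrasts, where 86 and 48 members were available.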
